A study of Homo sapiens with 2 samples.

Results

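Histones are the proteins around which DNA is wrapped, and their genes were described here in 1 mRNA library of untreated U87MG cells, an established human glioblastoma cell line. The genes were 67 of the 14376 protein-coding genes listed in the library. They comprised 60 replication-dependent genes, chosen by symbols that begin with HIST1, HIST2, HIST3 or HIST4, and 7 replication-independent genes, H2AFZ, H2AFX, H2AFY, H2AFV, H3F3A, H3F3B and H1F0. The series holds 2 libraries, this one and 1 of small RNA, both of the same untreated line grown in MEM with 10% FBS and 1% antibiotics. There was no replicate and no other cell, so no value has an error between replicates and no difference has a p-value. Values are FPKM, fragments scaled to gene length and library size, and the depth behind them is unknown. The library listed the mesenchymal filament gene VIM at 2420 FPKM and the hyaluronan receptor gene CD44 at 560 FPKM. GFAP, the filament of mature astrocytes, was at 0.331 FPKM and NES at 1.38 FPKM.

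Replication-dependent histone genes are transcribed in S phase to supply the core histones H2A, H2B, H3 and H4 and the linker histone H1 for new DNA. They lie in clusters and lack introns, and their mRNAs end in a conserved stem-loop bound by SLBP in place of a poly(A) tail. A library made by selecting poly(A) RNA therefore holds little of them, while a library made from total RNA keeps them. Replication-independent histone genes mostly carry introns, though H1F0 and H2AFX do not, give polyadenylated mRNA and are transcribed outside S phase as well. The sources used here do not give how the RNA of this library was selected. The labels repeat the small RNA kit and its reads of 50 bases for the mRNA library, while the series text describes paired reads for the transcriptome.

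The upstream DNA of 4 members is shown first, because these genes span the range of levels found below. Each sequence is the 200 bases before the RefSeq start of the gene on build GRCh38.p14, read 5′ to 3′ on the strand of the gene. Capitals mark the motifs TATAA (letters of the TATA box), CCAAT and ATTTGCAT (the octamer of H2B promoters, bound by OCT1), wherever they occur on either strand. HIST1H3B, at chr6:26032100-26032299, minus strand, was the highest member. HIST1H2BK, at chr6:27146859-27147058, minus strand, was the highest H2B gene. HIST1H2BM, at chr6:27814822-27815021, plus strand, was the lowest H2B gene of the HIST1 cluster. HIST2H2BE, at chr1:149886683-149886882, minus strand, was the lowest of all 67.
HIST1H3B: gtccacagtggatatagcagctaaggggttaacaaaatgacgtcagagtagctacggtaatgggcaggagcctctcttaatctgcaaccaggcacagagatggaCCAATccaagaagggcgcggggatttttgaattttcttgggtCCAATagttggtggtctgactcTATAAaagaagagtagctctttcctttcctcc
HIST1H2BK: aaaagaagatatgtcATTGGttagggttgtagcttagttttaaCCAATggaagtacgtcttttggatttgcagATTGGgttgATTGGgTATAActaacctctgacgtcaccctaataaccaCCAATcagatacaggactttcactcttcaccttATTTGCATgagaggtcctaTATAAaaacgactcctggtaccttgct
HIST1H2BM: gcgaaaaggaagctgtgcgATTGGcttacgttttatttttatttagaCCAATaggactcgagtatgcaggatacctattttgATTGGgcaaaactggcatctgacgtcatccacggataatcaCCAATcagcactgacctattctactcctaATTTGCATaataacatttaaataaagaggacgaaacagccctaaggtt
HIST2H2BE: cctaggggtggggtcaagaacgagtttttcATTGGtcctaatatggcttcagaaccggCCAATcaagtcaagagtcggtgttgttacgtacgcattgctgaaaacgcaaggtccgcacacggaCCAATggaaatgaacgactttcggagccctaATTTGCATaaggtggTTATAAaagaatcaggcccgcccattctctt

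The 60 replication-dependent genes were present at high levels. Their median was 77.3 FPKM, against 69.0 FPKM for the 7 replication-independent genes and 7.82 FPKM for all protein-coding genes. A level of 1 FPKM or more was reached by 54 of the 60 and by all 7, or 61 of 67 together. Of all 14376 protein-coding genes, 77.5% reached it. At 100 FPKM or more stood 26 of the 60 replication-dependent genes and 2 of the 7 replication-independent ones, against 3.83% of all protein-coding genes. The 60 genes held 1.65% of the protein-coding FPKM sum and the 7 genes 0.193%.

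Most replication-dependent genes lay inside the range of the replication-independent ones. That range ran from 9.83 to 253 FPKM and enclosed 42 of the 60 genes, while 5 were above it and 13 below. The medians of log2(FPKM + 1) differed by 0.16, with the replication-dependent genes higher. This difference changed sign under several settings, to -0.47 when the 11 RefSeq genes of these clusters that had no row were set to 0 and to -0.27 without 8 genes reported to give polyadenylated mRNA. No order of the medians of these groups can therefore be read from the library.

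The genes HIST1H3B and HIST1H1C led the replication-dependent group. HIST1H3B, which encodes a canonical H3, was at 493 FPKM and ranked 89 among all protein-coding genes. HIST1H1C, a linker histone of cells in and out of the cycle, followed at 360 FPKM. Both exceeded every replication-independent member. HIST1H3F was at 303 FPKM, HIST1H1B at 294 FPKM and HIST1H1E at 266 FPKM, and these also lay above H2AFZ. The following ranks alternated between families, with HIST1H2AC at 250 FPKM, HIST1H3G at 244 FPKM, HIST1H2AM at 224 FPKM, HIST1H2BK at 208 FPKM, HIST1H4B at 194 FPKM, HIST1H3C at 169 FPKM and HIST1H2BC at 167 FPKM. The 10 highest genes held 46.0% of the replication-dependent sum, so the level was spread over many genes. The 4 lowest were HIST2H3C at 0.322 FPKM, HIST2H4B at 0.297 FPKM, HIST1H1T at 0.229 FPKM and HIST2H2BE at 0.0577 FPKM.

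Of the 7 replication-independent genes, 5 were at 68.7 FPKM or more and 2 were below 10 FPKM. H2AFZ, which encodes H2A.Z, a variant found at promoters, was at 253 FPKM, and its paralogue H2AFV was at 79.4 FPKM. H3F3B and H3F3A encode the same variant H3 that is placed in chromatin outside replication. H3F3B was at 233 FPKM, 3.38 times the 69.0 FPKM of H3F3A. H2AFY, which encodes macroH2A, was at 68.7 FPKM. The lowest were H1F0, a linker histone of resting and differentiated cells, at 9.91 FPKM, and H2AFX, whose protein is phosphorylated at DNA breaks, at 9.83 FPKM. The pseudogene H3F3AP4, a processed copy of H3F3A, was listed at 24.5 FPKM, and how reads that match both were shared is not known. H2AFX is a special member, because its RNA is known in both a stem-loop and a polyadenylated form.

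The clusters differed far more than the 2 groups did. The HIST1 genes, on chromosome 6, had a median of 101 FPKM, and 50 of 51 reached 1 FPKM. The HIST2 genes, on chromosome 1, had a median of 0.322 FPKM, and 1 of 5 reached 1 FPKM. The ratio of these medians was 315. The 3 HIST3 genes lay between, with HIST3H2BB at 7.52 FPKM, HIST3H2A at 5.47 FPKM and HIST3H3 at 0.445 FPKM. HIST4H4, the only gene of its cluster, was at 76.3 FPKM and so within the HIST1 range. The highest HIST2 gene was HIST2H2AC at 3.22 FPKM, followed by HIST2H2BF at 0.563 FPKM. The 4 lowest HIST1 genes were HIST1H1A at 4.95 FPKM, HIST1H3H at 2.30 FPKM, HIST1H4I at 1.13 FPKM and HIST1H1T at 0.229 FPKM, and the others were above 5 FPKM.

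**Figure D1:**
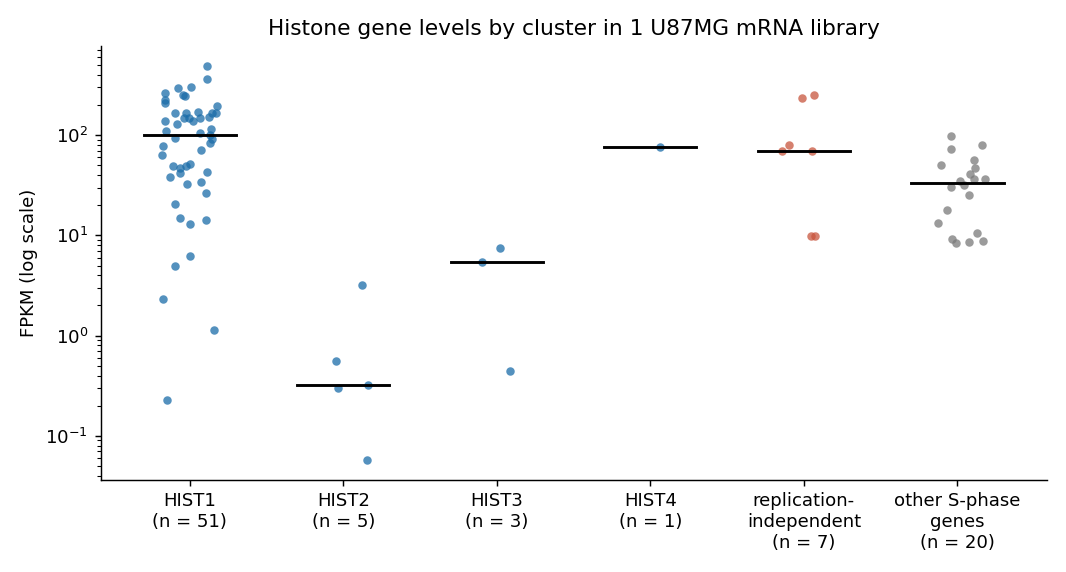
Levels in FPKM on a log axis, 1 point a gene and a bar at the median, for the 4 replication-dependent clusters, the 7 replication-independent genes and 20 other S-phase genes of the same U87MG library. The HIST1 median was 101 FPKM and the HIST2 median 0.322 FPKM.

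More genes of HIST2 than of HIST1 also lacked a row. RefSeq holds 71 protein-coding genes of these clusters, and 11 had no row. In HIST1 these were 4 of 55, HIST1H2AA, HIST1H2BA, HIST1H4F and HIST1H4G. In HIST2 they were 7 of 12, HIST2H2AA3, HIST2H2AA4, HIST2H2AB, HIST2H3A, HIST2H3D, HIST2H3PS2 and HIST2H4A. HIST2H2AA3 and HIST2H2AA4 are duplicate copies, as are HIST2H4A and HIST2H4B, and reads of such copies cannot be placed with certainty. The HIST2 median of 0.322 FPKM is the value of HIST2H3C. Whether HIST2H3C has such a copy among the genes with no row was not examined, so that median and its ratio to HIST1 are uncertain. A missing row gives no upper limit on the level.

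The genes beside the HIST2 cluster were low as well. Of the 31 other RefSeq coding genes in the cluster or among the 15 on either side, 19 had a row, with a median of 0.897 FPKM, and 9 reached 1 FPKM. Beside HIST1, 33 of 48 such genes had a row, with a median of 4.05 FPKM, and 25 reached 1 FPKM. Of the genes with a row, 47.4% beside HIST2 and 75.8% beside HIST1 reached it, against 77.5% of all protein-coding genes. The median was 5.83 FPKM beside HIST3 and 8.28 FPKM beside HIST4. SF3B4, a core splicing factor next to HIST2, was at 0.191 FPKM, BOLA1, a mitochondrial iron-sulphur protein, at 0.196 FPKM and APH1A, a subunit of gamma-secretase, at 0.707 FPKM. PDE4DIP, at 21.6 FPKM, was the highest gene beside HIST2. The low values of HIST2 were thus shared with genes that are not histones, and their part in the difference between clusters was not tested.

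**Figure D2:**
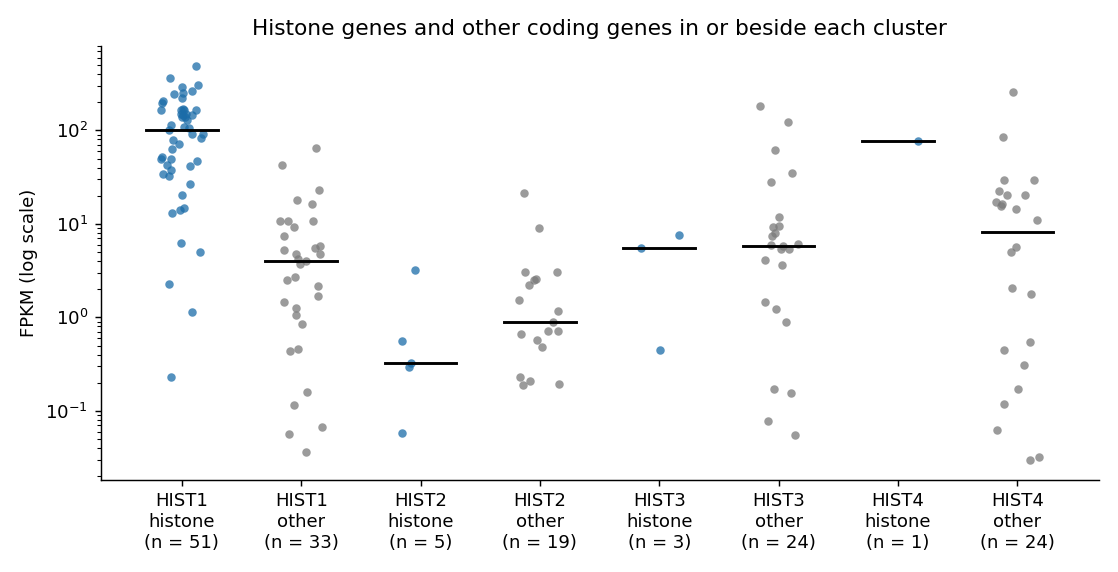
Levels in FPKM on a log axis of the histone genes of each cluster and, to their right, of the other coding genes inside the cluster or among the 15 on either side, with a bar at each median. Genes beside HIST2 had a median of 0.897 FPKM and genes beside HIST1 one of 4.05 FPKM.

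Along the HIST1 cluster, high and low genes were interspersed, with runs of high genes such as HIST1H4A, HIST1H4B and HIST1H3B at 127.8, 194 and 493 FPKM. The largest block ran from HIST1H1A to HIST1H4H, with 30 of 32 genes listed and a median of 133 FPKM. The block from HIST1H2BJ to HIST1H2AH had a median of 71.5 FPKM over 5 genes, and the block from HIST1H2BL to HIST1H2BO one of 80.6 FPKM over 16 genes. Each block held both high and low genes, from 0.229 to 493 FPKM in the first, from 1.13 to 208 FPKM in the next and from 2.30 to 294 FPKM in the last. The other coding genes between the histone genes had a lower median, 5.86 FPKM over the 11 with a row. They ran from ABT1 at 0.0568 FPKM to HMGN4, a range that overlaps that of the histone genes. HMGN4, a nucleosome-binding protein, was at 42.6 FPKM, TRIM38 at 10.8 FPKM and BTN2A1 at 10.7 FPKM. HFE, the gene of hereditary iron overload, was at 9.27 FPKM and the immune butyrophilin gene BTN3A2 at 7.43 FPKM. HIST1H1T, which lies between HIST1H4C at 167 FPKM and HIST1H2BC at 167 FPKM, stood at 0.229 FPKM.

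**Figure D3:**
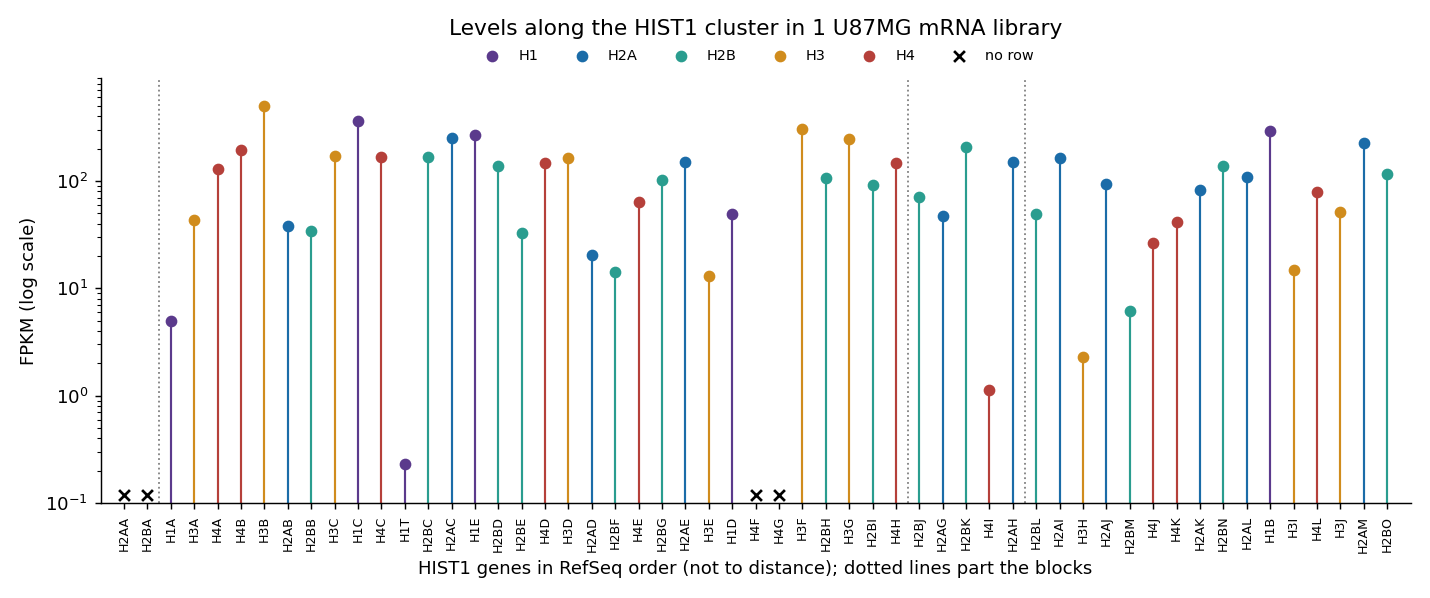
Levels in FPKM on a log axis along the 55 RefSeq genes of HIST1 in their order, coloured by family, with crosses for the 4 genes that have no row and dotted lines between blocks. Neighbouring genes differ widely, such as HIST1H1T at 0.229 FPKM beside HIST1H4C at 167 FPKM.

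HIST1H1T belongs to the histones of the male germ line. HIST1H1T and HIST3H3, both testis histones, were at 0.229 and 0.445 FPKM, and the testis pair HIST1H2AA and HIST1H2BA had no row. Neither of the testis genes with a row reached 1 FPKM, against 54 of all 60 replication-dependent genes with a row.

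All 5 families were present, and the spread inside each was wide. Among H1 genes the median was 158 FPKM over 6 genes, with HIST1H1C at 360 FPKM, HIST1H1D at 49.7 FPKM, HIST1H1A at 4.95 FPKM and HIST1H1T lowest. Among H2A genes it was 92.6 FPKM over 13 genes, from HIST1H2AC at 250 FPKM to HIST2H2AC at 3.22 FPKM. H2B genes had a median of 71.5 FPKM over 17 genes, from HIST1H2BK at 208 FPKM to HIST2H2BE at 0.0577 FPKM. H3 genes had one of 47.2 FPKM over 12 genes, from HIST1H3B at 493 FPKM to HIST2H3C at 0.322 FPKM. H4 genes had one of 77.3 FPKM over 12 genes, from HIST1H4B at 194 FPKM to HIST2H4B at 0.297 FPKM. Family ranges overlapped throughout.

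Within HIST1 the core families were close to each other. Their medians were 110 FPKM for H2A over 11 genes, 96.5 FPKM for H2B over 14, 108 FPKM for H3 over 10 and 103 FPKM for H4 over 10. The nucleosome takes up the 4 core histones in equal numbers, but protein was not measured here. Summed over all clusters, the FPKM of H2A, H2B, H3 and H4 genes came to 1340, 1283, 1499 and 1072, and that of H1 genes to 975. The lowest of the HIST1 family members were far below the highest. HIST1H3B was 215 times HIST1H3H at 2.30 FPKM, HIST1H4B 172 times HIST1H4I at 1.13 FPKM, HIST1H2BK 33.7 times HIST1H2BM at 6.18 FPKM and HIST1H2AC 12.2 times HIST1H2AD at 20.6 FPKM.

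**Figure D4:**
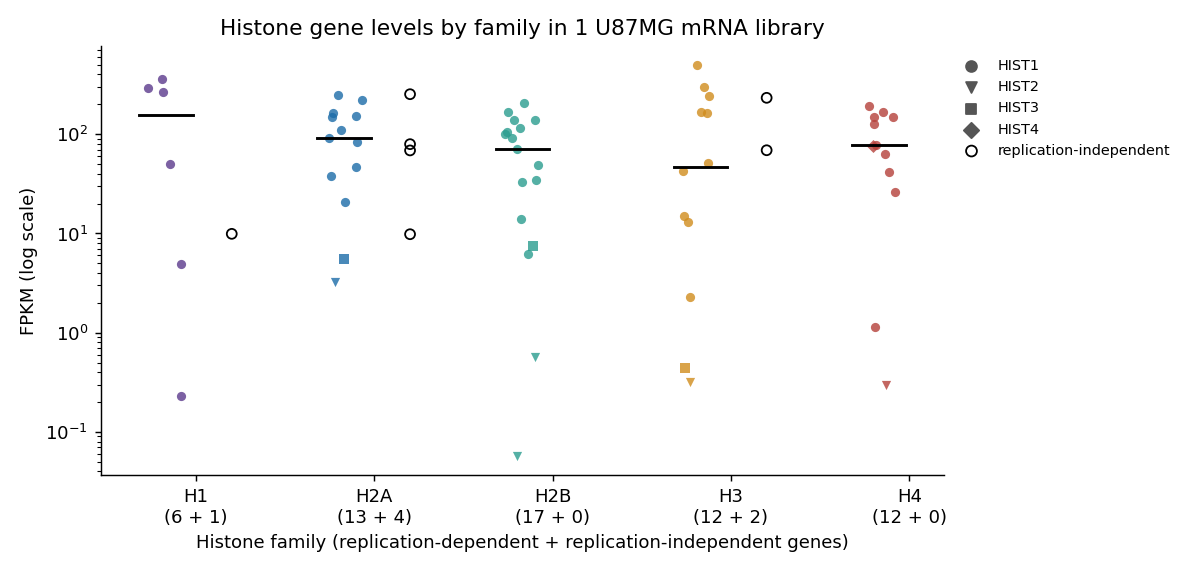
Levels in FPKM on a log axis by histone family, with filled marks for replication-dependent genes (shape gives the cluster, bars the median) and open circles for replication-independent genes. HIST2 and HIST3 genes form the lower end of H2A and H3, and the H2B range reaches from 208 down to 0.0577 FPKM.

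In the H3 and H2A families the canonical genes exceeded the replication-independent members in sum, over more genes. The median canonical H3 gene, at 47.2 FPKM, was below both H3F3A at 69.0 FPKM and H3F3B at 233 FPKM. The median canonical H2A gene, at 92.6 FPKM, was below H2AFZ and above H2AFV, H2AFY and H2AFX. How reads that match several of these genes were shared is not known. The 12 replication-dependent H3 genes summed to 1499 FPKM and the variant pair H3F3A and H3F3B to 302 FPKM, a ratio of 4.97. The 13 H2A genes summed to 1340 FPKM and the variants H2AFZ, H2AFV, H2AFY and H2AFX to 411 FPKM. Single variants were nevertheless among the high genes, because H2AFZ was above all 13 replication-dependent H2A genes and H3F3B above all but 3 of the 12 H3 genes.

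H2A and H2B genes that lie head to head were compared within pairs. RefSeq start sites put 11 such pairs 194 to 248 bases apart on opposite strands, so the partners share their upstream DNA. HIST1H2AH, for which no upstream sequence was found, is in none of these pairs, so a pair with it could have been missed. Both partners had a row in 10 pairs, and in 7 of these their levels were within 2-fold. Of the 90 other combinations of these same H2A and H2B genes, 23 were within 2-fold, or 25.6%. Inside HIST1 the counts were 6 of 8 pairs and 21 of 56 other combinations, or 37.5%. The combinations share genes, and no test was made of this difference. HIST1H2AC and HIST1H2BC were at 250 and 167 FPKM, HIST1H2AM and HIST1H2BO at 224 and 115 FPKM, and HIST1H2AE and HIST1H2BG at 151 and 101 FPKM. At lower levels HIST1H2AD and HIST1H2BF were at 20.6 and 14.1 FPKM, and HIST3H2A and HIST3H2BB at 5.47 and 7.52 FPKM.

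The H2A partner was higher in 7 of the 10 pairs. The H2B partner was higher in HIST1H2AG and HIST1H2BJ, at 47.1 and 71.5 FPKM, and in HIST1H2AK and HIST1H2BN, at 82.9 and 139 FPKM, besides the HIST3 pair. The 3 pairs outside 2-fold all had the H2A gene higher. HIST1H2AI was at 165 FPKM and HIST1H2BL at 49.4 FPKM, a ratio of 3.34. HIST1H2AJ was at 92.6 FPKM and HIST1H2BM at 6.18 FPKM, a ratio of 14.997, and HIST2H2AC was at 3.22 FPKM and HIST2H2BE at 0.0577 FPKM, a ratio of 55.8. The testis pair HIST1H2AA and HIST1H2BA had no row for either gene.

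**Figure D5:**
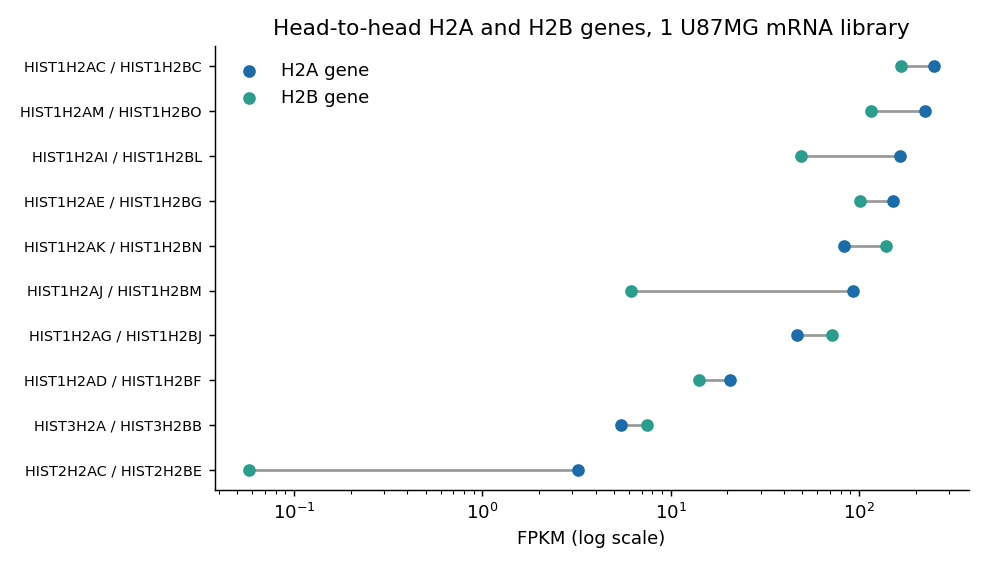
Levels in FPKM on a log axis of the H2A and H2B genes of the 10 head-to-head pairs with both rows, joined by a line. In 7 pairs the points lie within 2-fold, and the widest gap is that of HIST2H2AC at 3.22 FPKM and HIST2H2BE at 0.0577 FPKM.

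A promoter window was found for 55 of the 60 replication-dependent genes and 6 of the 7 replication-independent ones. The motif TATAA stood within 250 bases before the start in 92.7% of the 55, in 50% of the 6 and in 22.5% of all 27305 genes of the RefSeq table. CCAAT stood there in 85.5% of the 55, in all 6 and in 37.0% of all genes. The 51 replication-dependent genes with TATAA had a median of 78.3 FPKM and the 4 without it one of 6.50 FPKM, with ranges of 0.0577 to 493 FPKM and 0.297 to 360 FPKM. Those 4 were HIST1H1C at 360 FPKM, HIST3H2BB at 7.52 FPKM, HIST3H2A at 5.47 FPKM and HIST2H4B at 0.297 FPKM. Within HIST1, 45 of 46 windows held TATAA, and HIST1H1C, without it, was above the HIST1 median of 101 FPKM. The medians by motif are therefore mixed with the difference between clusters. In the printed sequences TATAA begins 32 bases before the start of HIST1H3B, 27 before that of HIST1H2BK and 30 before that of HIST2H2BE. HIST1H2BK holds a further TATAA 112 bases before its start. The letters were counted anywhere in the 250 bases and on either strand, so a hit need not be a TATA box. The 200 printed bases of HIST1H2BM hold none, but the search over 250 bases found it, so this gene counts among the 51 with TATAA. By family CCAAT was in all windows of H1, H2A, H2B and H3 genes and in 2 of 10 windows of H4 genes.

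The octamer ATTTGCAT followed the H2A and H2B families. It was in 13 of 17 H2B windows and 9 of 12 H2A windows, in 1 of 10 H3 windows and in no H1 or H4 window, against 2.03% of all genes. The windows of a head-to-head pair overlap, so that both partners can hold the same octamer. In the sequences printed above it begins 46 bases before the start of HIST1H2BK, 48 before that of HIST1H2BM and 46 before that of HIST2H2BE. These 3 genes were listed at 208, 6.18 and 0.0577 FPKM, so genes with the motif at nearly the same place covered nearly the whole range. The 23 replication-dependent genes with the octamer ran from 0.0577 to 250 FPKM and the 32 without it from 0.229 to 493 FPKM. The search found letters only and shows no binding.

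Genes reported to give polyadenylated mRNA were somewhat higher than the rest, with overlapping ranges. Some replication-dependent genes are known to be polyadenylated in resting or differentiating cells, and 8 were listed from general knowledge. The list was written with earlier results of these data known. Their median was 158 FPKM, against 57.3 FPKM for the other 52. Within HIST1 it was 167 FPKM over 7 genes, from HIST1H2BJ at 71.5 FPKM to HIST1H1C at 360 FPKM. The other 44 HIST1 genes had a median of 87.2 FPKM and ran from 0.229 to 493 FPKM. Of the 8, HIST2H2BE was the only one outside HIST1 and the only one below 1 FPKM. The other HIST1 members of the list were HIST1H2AC at 250 FPKM, HIST1H2BK at 208 FPKM, HIST1H2BC at 167 FPKM, HIST1H4H at 148 FPKM and HIST1H2BD at 138 FPKM. Of the 44 HIST1 genes outside the list, 43 were at 1 FPKM or more and 20 at 100 FPKM or more.

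Other S-phase genes, which give polyadenylated mRNA, were lower than the HIST1 genes. All 20 were above 1 FPKM, against 77.5% of all protein-coding genes at 1 FPKM or more. Their median was 33.4 FPKM, and the HIST1 median was 3.03 times that. The highest were PCNA, the sliding clamp of DNA polymerase, at 98.1 FPKM, MCM4 of the replicative helicase at 79.4 FPKM, TYMS (thymidylate synthase) at 72.9 FPKM and RRM1 (ribonucleotide reductase) at 56.2 FPKM. The lowest were CDT1, a licensing factor, at 8.62 FPKM and PRIM1, the primase subunit, at 8.48 FPKM. PCNA was exceeded by 26 of the 60 replication-dependent genes. Histone mRNAs are short, and FPKM divides by length under a rule that is not given.

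RNAs that lack a poly(A) tail were listed at very high values in the same library. Of 13 such RNAs 11 had a row, with a median of 71430 FPKM. SNORD3A (the U3 small nucleolar RNA) was at 1436980 FPKM, RN7SL1 and RN7SL2 (the signal recognition particle RNA) at 445303 and 320422 FPKM and RN7SK, a regulator of transcription elongation, at 175114 FPKM. The lowest were SCARNA2 at 356 FPKM and TERC, the telomerase RNA, at 70.4 FPKM, and RNU1-1 and RNU6-1 had no row. Protein-coding genes held 10.6% of the FPKM sum of all listed genes. The rule by which FPKM divides by length is not given, so the size of these values is uncertain for short RNAs. Histone genes whose mRNA mostly lacks a tail and these RNAs were thus both listed, and the part of RNA selection in these levels was not tested.

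Factors that make and end histone mRNA were at moderate levels. Of 16 listed, 15 had a row. Their median was 15.5 FPKM, and each reached 1 FPKM, against 77.5% of all protein-coding genes. UPF1, a helicase of histone mRNA decay, was at 36.7 FPKM and SLBP, the stem-loop binding protein, at 34.4 FPKM. CPSF2 and SYMPK, of the cleavage complex, were at 27.3 and 21.97 FPKM. NPAT, the coactivator of histone gene transcription, was at 4.36 FPKM. LSM11, of the U7 particle that directs the cut, was at 1.87 FPKM and MIF4GD, a translation partner of SLBP, at 1.28 FPKM. RNU7-1, the U7 RNA itself, had no row.

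Histone chaperones, which carry histones to and from DNA, all had a row, with a median of 12.9 FPKM. Of the 19, 17 or 89.5% reached 1 FPKM, against 77.5% of all protein-coding genes. NAP1L1 was at 99.4 FPKM, RBBP4, shared by the replication chaperone CAF-1 and other complexes, at 83.1 FPKM, NASP, a carrier of H3 and H4, at 69.8 FPKM and NAP1L4 at 54.5 FPKM. DAXX and ATRX, which together place the H3F3A and H3F3B product at telomeres and repeats, were lowest at 0.387 and 0.107 FPKM. The depth is unknown, so these low values have no interval and do not show absence. HIRA, its chaperone at active genes, was at 6.14 FPKM. ANP32E, a chaperone of H2A.Z, was at 1.18 FPKM and is one of the genes beside HIST2.

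Of 12 further variant histone genes 4 had a row and 3 reached 1 FPKM, against 77.5% of all protein-coding genes. The linker histone gene H1FX was at 11.9 FPKM, H2AFJ at 10.9 FPKM, the centromere gene CENPA at 5.82 FPKM and the macroH2A gene H2AFY2 at 0.0656 FPKM. H3F3C, H1FNT, H1FOO, H2AFB1, H2AFB2, H2AFB3, H2BFM and H2BFWT had no row. Within the macroH2A genes the level thus lay in H2AFY.

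The histone rows also differed from other coding rows in how they were annotated. The deposited table lists a length for most coding genes, whose unit is not stated and which for most of the listed histone genes is close to the size of the protein in amino acids. It was missing for 40 of the 60 replication-dependent genes, or 66.7%, against 3.71% of all protein-coding genes. The identifiers of 31 of the 60, or 51.7%, were not in the gene name table, against 2.16% of all protein-coding genes. Over all clusters the 31 genes whose identifier was not found had a median of 91.6 FPKM and the 29 found one of 51.4 FPKM. Within HIST1 the order was the opposite, with 92.1 FPKM over 30 genes not found and 139 FPKM over 21 found. The 40 genes with no length had a median of 87.2 FPKM and the 20 with one 49.6 FPKM. All 31 genes without a current identifier also lacked a length.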

How the data were processed

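The mRNA library (RNA integrity number 9.3 for total RNA, per the labels) was given by the authors as FPKM for each Ensembl gene, per the file headers, with no counts. The piRNA counts, per the file headers, were deposited as read counts for each database entry. Per the submitters' processing notes, cutadapt and the builds hg19 and GRCh37 were used. The aligner, the FPKM program, its length rule and strand use, and the rule for reads that match several genes were not given. Near-identical histone genes are therefore uncertain one by one.

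From these values counts at 1 FPKM or more and medians were computed with Python 3.11.15 and pandas 2.3.3, on FPKM and on log2(FPKM + 1). No test was run, since there was 1 library. The selection of members and the difference of medians were checked on simulated data with all genes of a group at the same known level. That check does not show how medians behave when levels vary within a group. All 67 members were matched to RefSeq by identifier or older symbol. Order, neighbours and upstream sequences came from RefSeq on GRCh38.p14, which is not the build of the files. Head-to-head pairs had opposite strands and starts at most 1000 bases apart. Named were all replication-independent members, the 12 highest and 4 lowest replication-dependent genes, the extremes of each cluster and family, the pairs, and the 4 highest, 2 lowest and missing genes of each list. Other genes were named once their values were known. The members and lists were chosen with earlier results of these data known.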

Additional observations from a re-analysis of the deposited data

Results flagged for a closer look

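A small RNA entry overlapped the start of a histone gene in a file that the comparisons above do not use. The piRNA database entry piR-57919 had 16 reads, above the 3 reads that a count of 0 would allow. Its listed sequence is tgtagctataaagcgccaacgaaaaggaaa, and it matched in full the strand opposite to HIST1H2BJ from base 9 to base 38 after the RefSeq start. The reads were 5.86e-05% of the 27299683 piRNA reads (exact Clopper-Pearson 95% interval 3.35e-05 to 9.52e-05%, counting error only). It was the only one of 10487 entries found in the windows of the 61 members searched. In the window of any of 27305 genes lay 95 entries, which is 0.906% of the entries and not a share of the windows. Those 95 had a median of 2 reads, and 17 of them had 16 or more. HIST1H2BJ itself was at 71.5 FPKM.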

How the results depend on the processing

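The difference between the medians of log2(FPKM + 1), replication-dependent minus replication-independent, was 0.16. It kept its direction in 6 of 10 alternatives and reversed in 4. It became -0.47 with genes lacking a row set to 0, -0.27 without the reported polyadenylated genes, -0.42 with identifiers of the gene name table only and -0.47 with members of listed length only. It was 0.051 with rows of every gene type, 0.22 without the testis histones, 0.15 without the highest member of each group, 0.18 with rows at 0.1 FPKM or more, 0.16 with a pseudocount of 0.1 and 0.55 with HIST1 members only. The settings on identifiers, length and HIST1 were chosen after seeing the data. With genes lacking a row set to 0, medians were 91.6 FPKM for HIST1, 0 for HIST2, 47.1 for H2A, 60.4 for H2B, 14.9 for H3 and 63.2 for H4. Without its highest member, HIST1 had 97.0 FPKM, HIST2 0.310 and HIST3 2.96. Members at the threshold numbered 62 at 0.5 FPKM, 60 at 2 and 52 at 10, against 61 at 1. The cause was not tested. A setting without members of identical protein was not run, because protein sequences were not used here. No paired analysis was possible because there was 1 library. The FPKM depth is unknown, so low values such as that of HIST2H2BE have no interval.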
